A study of Mus musculus with 6 samples.

Results

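Genes of microtubules, of the cytoplasmic dynein motor and of intermediate filaments were compared between 2T3 cells in simulated microgravity and static 2T3 cells. 2T3 is a mouse pre-osteoblast line. The set was defined by gene symbol alone. It takes every gene whose symbol starts with Tuba, Tubb, Tubg, Dync, Dynl, Dctn, Stmn, Mapre, Klc, Lmn or Krt, together with Map1b, Map2, Map4, Map7, Vim, Nes and Des. This gave 70 genes of the 8841 named on the array, each with 1 probe. Map1a, which the rule also names, was not analysed here. The prefixes also take in Tubgcp2, a partner of gamma-tubulin, as well as 6 keratin-associated proteins (Krtap) and the keratinocyte-associated genes Krtcap2 and Krtcap3.

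Total RNA came from 6 samples of cells grown in Opticells, which are closed cassettes with gas-permeable walls, with 1 array per sample. In 3 samples the cells had been turned on a Random Positioning Machine, which keeps changing the direction of gravity relative to the cells. The other 3 samples were static controls. How long the exposure lasted is not given in the labels. Nor do they say whether the 3 samples of a group were grown separately, so each p-value reflects sample-to-sample spread that may be technical.

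Microtubules are hollow polymers of alpha- and beta-tubulin that organise the cell interior and build the mitotic spindle. Cytoplasmic dynein walks along them towards their minus ends, with dynactin as its cofactor, and carries organelles and signalling complexes. Intermediate filaments form separate networks. Vimentin is the usual filament protein of mesenchymal cells, keratins are typical of epithelia and hair, and lamins line the nuclear envelope. In bone-forming cells these networks are studied for their part in cell shape, nuclear position and the response to load.

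Each array carried 10337 to 10432 values. Intensities are given as multiples of the array's median, and because probes differ in yield they are compared between arrays, not between genes. Lower values were raised to a floor of 0.1 of the median before log2 was taken. The floor held 6.44% to 19.8% of the values of an array and understates changes of dim probes. Of 10 osteoblast markers, 7 were measured, and 6 had mean intensities above the array median. Their summed intensity was 72.9 to 119 on the microgravity arrays and 211 to 274 on the static arrays. Bright probes (Col1a1, Col1a2, Omd and Postn) made up most of that sum. Of the 7, 3 (Alpl, Omd and Pth1r) were lower at a limma adjusted p under 0.05, against 0.276% of all probes tested in either direction. Ibsp had a log2 change of -0.05, and the Col1a1 groups overlapped. In bulk RNA, fewer cells of a type and less RNA per cell cannot be told apart.

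No member of the set (0 of 68 tested by limma) passed the threshold of an adjusted p of 0.05, and no member changed 2-fold. Of the 10146 probes tested, 28 passed, which is 0.276%. The members went both ways, with 35 higher and 33 lower in simulated microgravity and a median log2 change of 0.01. Of the 42 members without the Krt prefix, 20 were higher and 22 lower, with a median of -0.06. Over all 8586 genes tested the median was 0.05, and 56.5% were higher. The members' log2 changes lay between -0.72 and 0.58, against -3.39 to 2.45 for all genes. The 2 members not tested, Krt10 and Krt18, lay below 0.1 of the median on all 6 arrays.

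**Figure D1:**
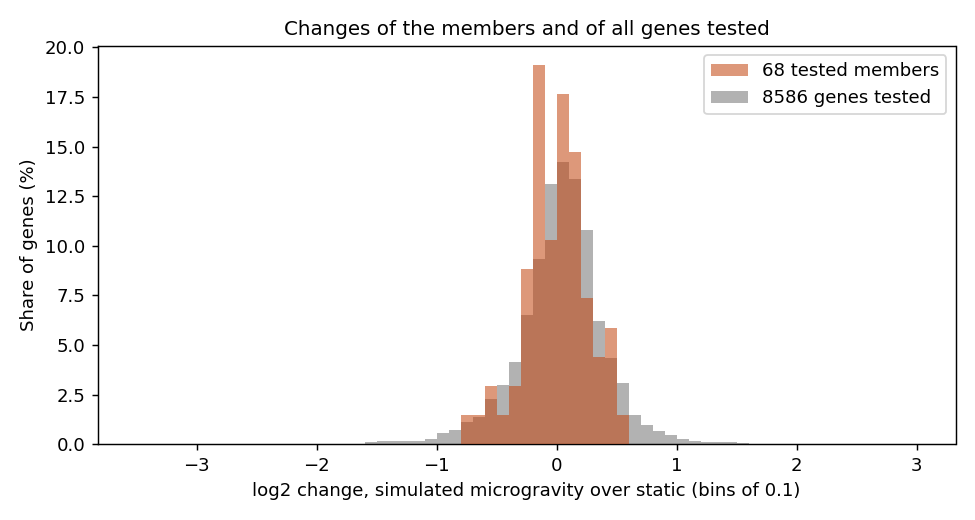
Share of genes (percent) by log2 change, simulated microgravity over static, in bins of 0.1, for the 68 tested members and for all 8586 genes tested. The members lie between -0.72 and 0.58, inside the wider range of all genes.

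At an unadjusted p under 0.05 there were 5 members (7.35%), 3 lower and 2 higher, while 10.8% of all probes tested reached that level, 5.28% lower and 5.56% higher. The arrays of the groups did not overlap in 8 members (11.8%), in 6 of them with lower and in 2 with higher values in microgravity. Among all probes tested the groups did not overlap in 15.7%, in 7.57% with lower and in 8.11% with higher values in microgravity. Both shares of the members rest on few genes and were not far from those of all probes. Over the 42 members without the Krt prefix they were 9.52% and 14.3%.

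The 95% interval of the log2 change lay within a 2-fold change in either direction for 57 of 68 members (83.8%), and for 69.9% of all genes tested. For the remaining members, a 2-fold difference lay within the interval. They were Lmna, Lmnb1, Dynlt1b, Dync2h1, Dync2li1, Dctn4, Stmn4, Map2, Krt12, Krtap14 and Krtcap3. The floor narrows the intervals of members that lie under it on most arrays, such as Krt1 and Map7. Among members with a mean above the array median, 32 of 37 intervals (86.5%) lay within a 2-fold change, against 73.0% for such genes.

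**Figure D2:**
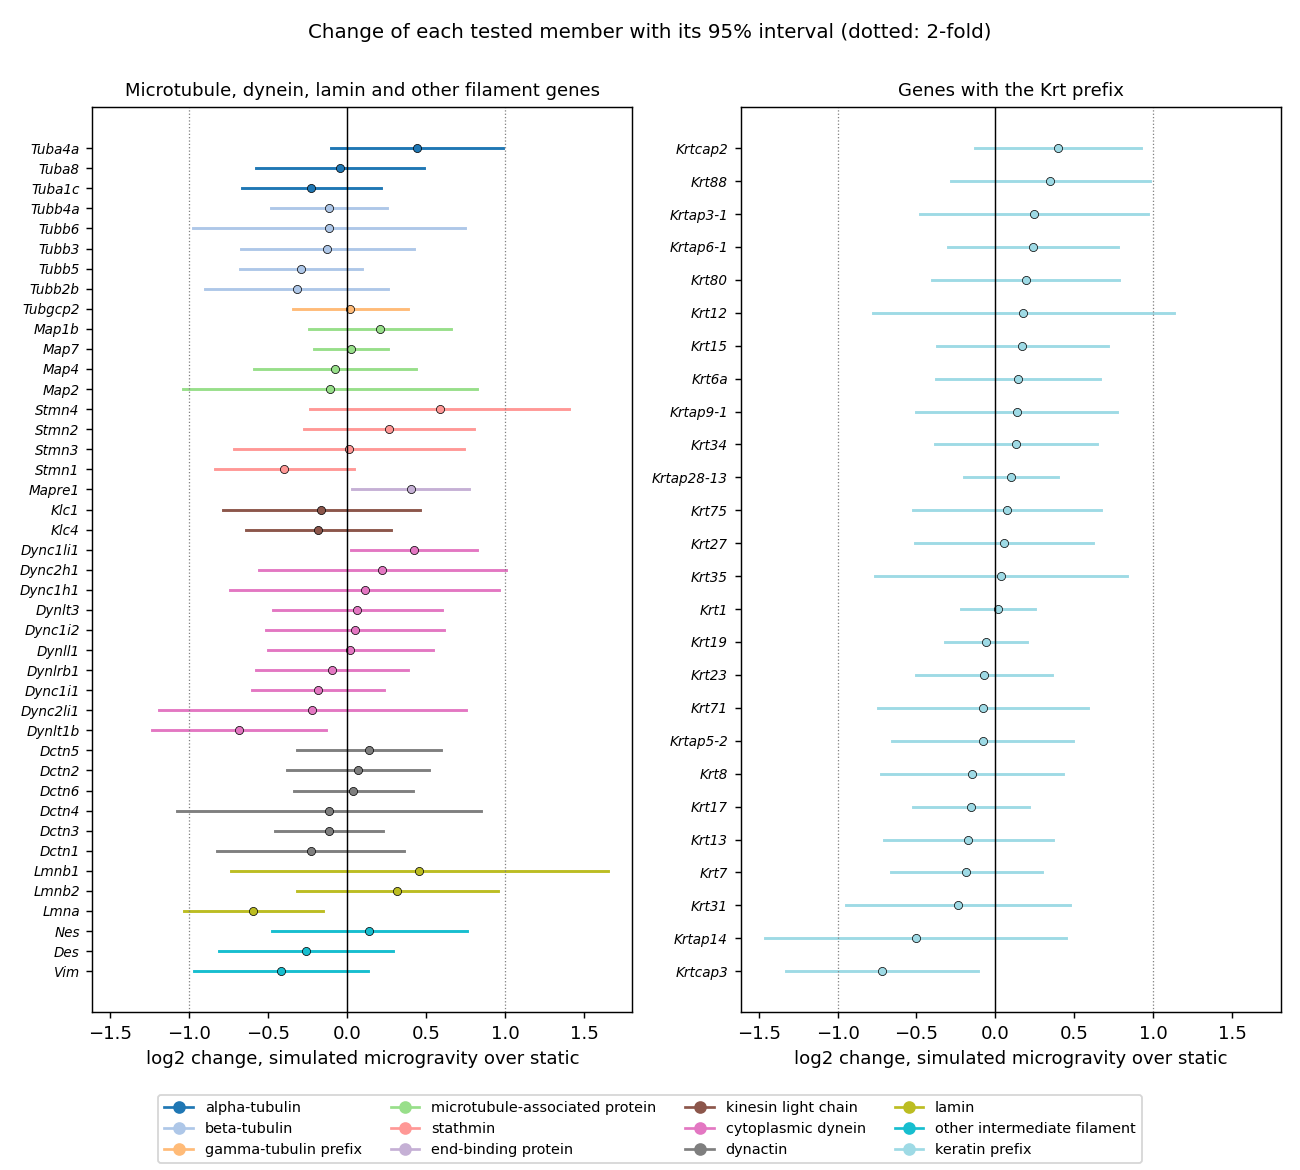
Log2 change of each tested member, simulated microgravity over static (points), with its 95% interval from limma (lines), coloured by class. The left panel holds 42 genes and the right panel the 26 tested genes with the Krt prefix, and dotted lines mark a 2-fold change. Only the intervals of Lmna, Dynlt1b, Krtcap3, Mapre1 and Dync1li1 leave out 0.

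The members with the smallest p were Lmna and Dynlt1b among those with lower values, and Mapre1 and Dync1li1 among those with higher values. Promoters of Lmna, Mapre1 and Dync1li1, which are among these genes, are shown from RefSeq (build GRCm38.p6). Each is a window of 300 bases that spans an annotated start. Capitals mark the CCAAT box, the GC box GGGCGG and the TATA box TATAAA, searched on both strands. Lmna has 2 annotated starts in this table, both on the minus strand.
Lmna, chr3:88493263-88493562, minus strand: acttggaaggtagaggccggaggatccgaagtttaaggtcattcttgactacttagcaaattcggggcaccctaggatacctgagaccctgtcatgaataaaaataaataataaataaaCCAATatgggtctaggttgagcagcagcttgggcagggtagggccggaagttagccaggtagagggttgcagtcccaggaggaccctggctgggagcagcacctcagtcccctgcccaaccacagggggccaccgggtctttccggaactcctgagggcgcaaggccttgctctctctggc
Lmna, chr3:88503303-88503602, minus strand: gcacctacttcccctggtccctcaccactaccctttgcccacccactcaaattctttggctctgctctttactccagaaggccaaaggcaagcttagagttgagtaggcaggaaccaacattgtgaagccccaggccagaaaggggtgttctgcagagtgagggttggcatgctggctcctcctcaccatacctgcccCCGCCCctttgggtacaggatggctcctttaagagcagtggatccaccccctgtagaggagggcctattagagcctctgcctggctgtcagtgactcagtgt
Mapre1, chr2:153741037-153741336, plus strand: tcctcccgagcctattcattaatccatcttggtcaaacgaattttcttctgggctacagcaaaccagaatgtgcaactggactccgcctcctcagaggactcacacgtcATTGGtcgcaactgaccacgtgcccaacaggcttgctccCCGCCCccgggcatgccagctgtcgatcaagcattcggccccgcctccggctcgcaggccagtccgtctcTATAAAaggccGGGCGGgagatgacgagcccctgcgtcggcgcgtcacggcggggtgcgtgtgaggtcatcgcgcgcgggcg
Dync1li1, chr9:114688581-114688880, plus strand: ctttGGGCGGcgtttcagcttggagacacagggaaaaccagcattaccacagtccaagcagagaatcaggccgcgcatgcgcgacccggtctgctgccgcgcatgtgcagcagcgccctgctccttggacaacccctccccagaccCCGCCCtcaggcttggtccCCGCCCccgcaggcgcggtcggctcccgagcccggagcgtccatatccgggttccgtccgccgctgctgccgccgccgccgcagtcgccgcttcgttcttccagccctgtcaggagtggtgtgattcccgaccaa

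The Mapre1 window holds 1 CCAAT box, 2 GC boxes and 1 TATA box, and the Dync1li1 window holds 3 GC boxes. The Lmna windows hold 1 CCAAT box and 1 GC box between them, 1 in each. Of 32851 mouse promoters of this length, 37.4% hold a CCAAT box, 35.7% a GC box and 13.6% a TATA box. A match is a run of letters only, and no binding was measured here.

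Lamin A/C had the smallest p of the set, while the B-type lamins pointed the other way within their spread. Lmna encodes the A-type lamins, the nuclear filaments that stiffen the nucleus. It had 1.72, 1.57 and 1.49 times the array median in microgravity, against 2.07, 2.85 and 2.33 in static cells. All microgravity arrays lay below all static arrays. The ratio was 0.662 (log2 change -0.59, SE 0.18, 95% interval -1.03 to -0.15, limma adjusted p = 0.292), and over 19 alternative fits the adjusted p was 0.189 to 0.622.

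Lmnb2, a B-type lamin that stays anchored in the nuclear membrane, had 10.3, 8.29 and 12.9 in microgravity and 11.3, 6.11 and 8.25 in static cells. Lmnb1, the other B-type lamin, had 6.46, 2.88 and 7.35 in microgravity and 1.95, 5.35 and 5.08 in static cells. Its lowest array, static 1, lay below the other static arrays. The groups of both B-type lamins overlapped.

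Vimentin, nestin and desmin are the cytoplasmic filament proteins of the set outside the keratins. Vim had 60.9, 53.5 and 76.8 in microgravity and 107, 68.7 and 81.7 in static cells. Microgravity 3 lay above static 2, so the groups overlapped, and the ratio was 0.746 (log2 change -0.42, 95% interval -0.97 to 0.13, limma adjusted p = 0.643). Without static 1 the log2 change of Vim was -0.25. Nes, a filament protein of progenitor cells, had 16.7, 20.4 and 26.3 in microgravity and 26.1, 15.9 and 16.1 in static cells. The highest nestin arrays, microgravity 3 and static 1, came from different groups. Des, the muscle filament protein, lay between 0.0925 and 0.177 on all arrays. Of 8 measured skeletal muscle markers none (0) had a mean above the array median, and their summed intensity was 0.908 to 1.29 in microgravity and 0.993 to 1.14 in static cells.

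**Figure D3:**
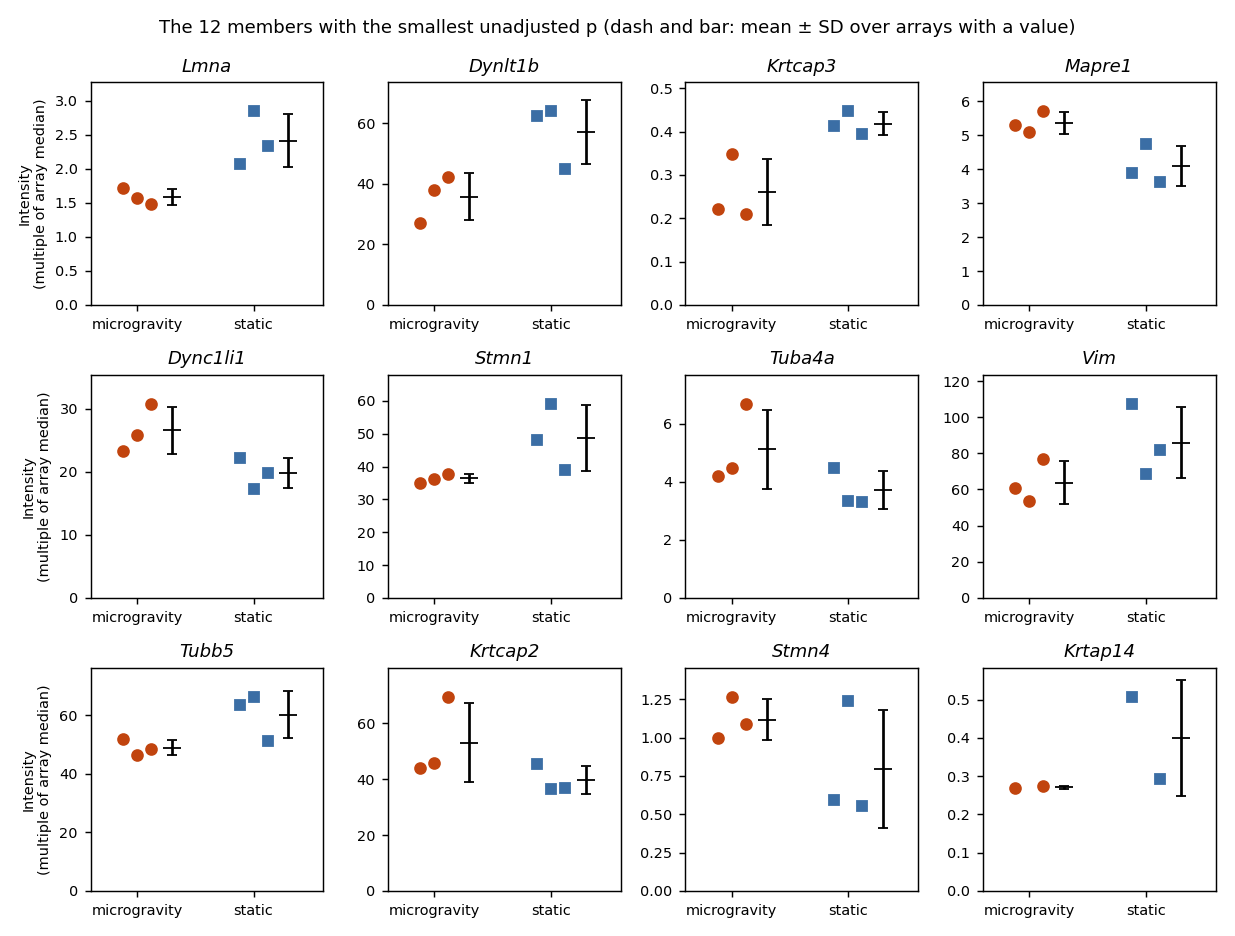
Intensity as a multiple of the array median for the 12 members with the smallest unadjusted p, with 1 panel per gene and its own linear axis from 0. Points are arrays, microgravity on the left and static on the right, and the dash with its bar is the mean ± SD. The groups stand apart for Lmna, Dynlt1b, Krtcap3, Mapre1, Dync1li1, Stmn1 and Krtap14, while those of Vim, Tubb5, Tuba4a, Krtcap2 and Stmn4 overlap. Krtap14 had no value on microgravity 2 and static 2.

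Tubulin genes had small differences. Of 8 alpha- and beta-tubulin genes, 7 were lower in simulated microgravity, under quantile and cyclic loess normalization as well, and 0 passed by limma (0 at an unadjusted p under 0.05). Over all alternatives 5 to 7 were lower. Their median log2 change was -0.12, and -0.23 to -0.09 over the alternatives. It was -0.23 without microgravity 3 and -0.22 without static 3, but -0.10 without static 1 and -0.09 without both microgravity 3 and static 1. In the reported fit all 8 intervals lay within a 2-fold change. All 5 beta-tubulins had log2 changes below 0, as did 4 or 5 of them in every alternative.

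Tubb5, the beta-tubulin found in most cell types, had 51.8, 46.6 and 48.5 in microgravity and 63.6, 66.2 and 51.1 in static cells. Static 3 lay just below microgravity 1, and the ratio was 0.816 (log2 change -0.29, 95% interval -0.68 to 0.10, limma adjusted p = 0.657). Tubb2b had 7.81, 9.87 and 10.4 in microgravity and 12.9, 14.6 and 8.25 in static cells, a wider spread in the static group. Tubb6 varied widely within both groups. It ranged from 19.9 to 38.8 in microgravity and from 21.9 to 49.0 in static cells. Tubb4a lay between 2.25 and 2.77 in microgravity and between 2.61 and 2.89 in static cells. The neuronal form Tubb3 lay between 0.448 and 0.558 in microgravity and between 0.460 and 0.616 in static cells.

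Among the alpha-tubulins, Tuba1c had 60.7, 76.2 and 73.8 in microgravity and 82.2, 93.8 and 70.9 in static cells, with a ratio of 0.855 (log2 change -0.23, limma adjusted p = 0.856). The log2 change was -0.13 without microgravity 1 and likewise without static 2. Tuba4a was the only tubulin with a log2 change above 0 in this fit. Its values in microgravity were 4.19, 4.49 and 6.67, against 4.48, 3.35 and 3.32 in static cells (log2 change 0.44, 95% interval -0.10 to 0.99). Microgravity 3 stood above the other arrays, and the groups overlapped through static 1. Without microgravity 3 the log2 change of Tuba4a was 0.24. Tuba8 lay between 0.338 and 0.472 on all arrays. Tubulin isotypes are close in sequence, and how well the probes tell them apart was not tested.

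Stathmin 1 and EB1, which act on microtubule growth, were among the genes whose groups did not overlap. Stmn1 encodes stathmin, which binds tubulin dimers and promotes the shrinking of microtubules. It had 35.1, 36.3 and 37.8 in microgravity and 48.1, 59.0 and 38.9 in static cells. The microgravity arrays lay close together and below all static arrays, by a small margin to static 3 (ratio 0.759, log2 change -0.40, 95% interval -0.84 to 0.04, limma adjusted p = 0.536). Without static 2 the log2 change was -0.25. The other stathmins are mainly neuronal. Stmn4 had 0.995, 1.26 and 1.09 in microgravity and 0.593, 1.24 and 0.555 in static cells, and static 2 lay within the microgravity range. Stmn3 was at 0.0935 to 0.199, and Stmn2 was below 0.1 on 5 of 6 arrays.

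Mapre1 encodes EB1, which tracks growing microtubule plus ends and recruits other proteins there. It had 5.30, 5.08 and 5.70 in microgravity and 3.89, 4.75 and 3.62 in static cells. All microgravity arrays lay above all static arrays. The ratio was 1.32 (log2 change 0.40, SE 0.16, 95% interval 0.03 to 0.77, limma adjusted p = 0.412), and over 19 alternative fits the adjusted p was 0.125 to 0.905.

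Of the genes for proteins that bind along microtubules, only Map4 had a mean above the array median, and it showed no difference beyond the spread between arrays. Map4, the main such protein outside neurons, had 14.2, 13.1 and 11.3 in microgravity and 10.3, 14.0 and 17.3 in static cells (log2 change -0.08, 95% interval -0.59 to 0.43). The neuronal genes Map1b and Map2 and the epithelial Map7 were dim, at 0.0438 to 0.154, 0.0641 to 0.251 and 0.0430 to 0.105. Map1b had higher deposited values in microgravity on all arrays (0.0950 to 0.154, against 0.0438 to 0.0891 in static cells), but 5 of these 6 values lay under 0.1 of the median. Snap25 was the only one of 6 measured neuronal markers with a mean above the array median, and their summed intensity was 2.27 to 3.11 in microgravity and 3.21 to 4.06 in static cells.

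Tubgcp2, a subunit of the gamma-tubulin complex that starts new microtubules, had 4.60, 4.13 and 4.45 in microgravity and 3.79, 4.29 and 4.98 in static cells. Kinesin light chains link kinesin to its cargo. Klc1 had 1.84 and 2.14 on microgravity 1 and 3 and 2.46 and 2.01 on static 1 and 3, with no value on the remaining arrays, so its fit used 4 arrays. Klc4 had 0.848, 0.759 and 0.850 in microgravity and 0.865, 1.00 and 0.921 in static cells. The Klc4 groups did not overlap, with static 1 just above the microgravity arrays.

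Cytoplasmic dynein has heavy chains that walk, intermediate and light intermediate chains that bind dynactin and adaptors, and light chains. Of 10 dynein genes 6 had higher and 4 lower values, against 5 and 5 after quantile and 3 and 7 after cyclic loess normalization. By limma 0 passed, and 2 (20%) were at an unadjusted p under 0.05, against 10.8% of all probes tested. Dync1li1, the light intermediate chain that joins dynein to cargo adaptors, had 23.3, 25.8 and 30.7 in microgravity and 22.2, 17.3 and 19.8 in static cells. All microgravity arrays lay above all static arrays. The ratio was 1.34 (log2 change 0.42, SE 0.17, 95% interval 0.03 to 0.82, limma adjusted p = 0.421), and over 19 alternative fits the adjusted p was 0.260 to 0.747.

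Dynlt1b, a light chain of the Tctex family, had 27.2, 37.9 and 42.2 in microgravity and 62.6, 64.0 and 45.1 in static cells. All microgravity arrays lay below all static arrays, with static 3 closest. The ratio was 0.622 (log2 change -0.69, SE 0.23, 95% interval -1.24 to -0.13, limma adjusted p = 0.333), and over 19 alternative fits the adjusted p was 0.0922 to 0.704. The RefSeq table lists 4 mouse Dynlt1 genes (Dynlt1a, Dynlt1b, Dynlt1c and Dynlt1f), closely related copies that this probe may not tell apart. Dynlt3, another light chain of that family, had 14.9, 18.4 and 10.9 in microgravity and 11.5, 15.1 and 15.1 in static cells.

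The remaining light chains overlapped between groups. Dynlrb1, of the roadblock family, had 58.5, 73.5 and 74.2 in microgravity and 74.2, 87.1 and 60.3 in static cells. Dynll1, a light chain that also binds many proteins outside dynein, had 42.0, 45.1 and 66.5 in microgravity and 52.9, 53.3 and 42.8 in static cells. Among the larger subunits, the heavy chain Dync1h1 had 15.4, 18.2 and 9.19 in microgravity and 8.03, 16.1 and 15.8 in static cells. Its intermediate chain Dync1i2 had 17.0, 19.1 and 12.8 in microgravity and 11.8, 19.1 and 16.8 in static cells. Both were lowest on microgravity 3 and static 1. Dync1i1, the neuronal intermediate chain, was under 0.1 on 5 of 6 arrays.

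Dynein 2, which moves cargo inside cilia, is represented by Dync2h1 and Dync2li1. Dync2h1 had 1.54, 2.27 and 1.05 in microgravity and 1.05, 1.65 and 1.34 in static cells, so the groups overlapped. Dync2li1 had 0.589, 0.302 and 0.491 in microgravity and 0.657, 0.308 and 0.683 in static cells.

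The 6 dynactin genes had log2 changes of -0.23 to 0.14, with groups that overlapped in each. Dctn1, the large subunit that binds both microtubules and dynein, had 2.89, 2.39 and 1.84 in microgravity and 2.11, 2.92 and 3.33 in static cells. Dctn2 (dynamitin), Dctn3 and Dctn6 lay at 10.7 to 12.9, 6.36 to 7.60 and 20.7 to 25.4 in microgravity, and at 9.64 to 14.5, 6.84 to 8.27 and 20.5 to 25.9 in static cells. Dctn4 had its lowest value in each group on array 2, at 1.19 on microgravity 2 and 1.57 on static 2, while the other arrays lay between 2.54 and 2.95. Dctn5 had no value on microgravity 1 and was fitted on 5 arrays, with 10.4 and 9.36 in microgravity and 8.04 to 10.6 in static cells.

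Keratins were mostly dim. Of 20 keratin genes, 5 had a mean above the array median (Krt31, Krt35, Krt6a, Krt80 and Krt88), and 10 had at least 1 array under 0.1 of the median. None of the 18 tested passed (0 by limma, 0 at an unadjusted p under 0.05), and the groups overlapped in each. Krt8 and Krt18, the pair of simple epithelia, lay at 0.0813 to 0.177 and 0.00969 to 0.0665. Of 9 epithelial markers 7 were measured, 0 with a mean above the array median. Ovol1, with no value on microgravity 2 and static 2, had 0.588 and 0.632 on the remaining microgravity arrays and 0.720 and 0.574 on the static ones. The summed intensity of the other 6 was 0.726 to 1.02 in microgravity and 0.700 to 0.832 in static cells.

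Krt31, a hair keratin, was measured well above the median on every array, at 9.84, 5.99 and 13.9 in microgravity and 10.0, 11.9 and 11.2 in static cells. Microgravity 2 was low and microgravity 3 high, on either side of the static range. Whether that probe also binds another transcript was not tested. Krt35 had no value on microgravity 2 and static 2, with 1.98 and 2.73 on the remaining microgravity arrays and 2.73 and 1.88 on the static ones. Krt88 had 2.41, 2.06 and 3.52 in microgravity and 2.62, 1.81 and 1.78 in static cells, and Krt80 had 1.91 to 2.48 in microgravity and 1.50 to 2.65 in static cells. Krt6a lay between 1.14 and 1.83 on all arrays. Krt34, Krt71, Krt75, Krt7, Krt12 and Krt15 lay between 0.0892 and 0.871, and Krt1, Krt13, Krt17, Krt19, Krt23 and Krt27 between 0.0189 and 0.174.

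Genes that share the prefix without being keratins included Krtcap3 and Krtcap2. Krtcap3 had 0.222, 0.349 and 0.211 in microgravity and 0.414, 0.446 and 0.394 in static cells, so the groups did not overlap below the array median (ratio 0.608, log2 change -0.72, 95% interval -1.33 to -0.11, limma adjusted p = 0.365). Krtcap2, a subunit of the enzyme that attaches sugar chains to new proteins in the endoplasmic reticulum, had 43.9, 46.0 and 69.4 in microgravity and 45.6, 36.6 and 37.0 in static cells. Microgravity 3 stood apart, and static 1 lay within the microgravity range. Of the 6 keratin-associated proteins, Krtap14 had 0.268 and 0.274 in microgravity and 0.507 and 0.292 in static cells, with 2 arrays missing. Krtap5-2 lay at 1.10 to 1.53 in microgravity and 1.20 to 1.81 in static cells, and the remaining Krtap genes between 0.0149 and 1.02.

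Members differed between arrays of the same group in a shared way. Over the 34 members with a mean above the array median and a value on all arrays, 20 (58.8%) had both their lowest or both their highest value of each group on microgravity 3 and static 1. The same held for 52.9% of 4522 genes selected in that way, so it was not particular to the set. The 8 lowest there were Dync1h1, Dync1i2, Dync2h1, Dynlt3, Dctn1, Map4, Lmna and Tubb4a. The 12 highest there were Dync1li1, Tuba4a, Tubb6, Lmnb2, Vim, Nes, Dctn3, Dctn4, Krt6a, Krt80, Krt88 and Krtcap2. Other arrays were counted in the same way. On microgravity 1 and static 3 it was 14 members (41.2%), against 32.6% of the 4522 genes. Of these, 10 were lowest there, among them Dynlt1b, Stmn1, Tuba1c, Tuba4a and Tubb2b. On microgravity 2 and static 2 it was 9 members (26.5%), against 44.7%. Opposite extremes, lowest in 1 group and highest in the other, fell on microgravity 3 and static 1 in 2 members (5.88%, against 5.26%). They fell on microgravity 1 and static 3 in 1 member (2.94%, against 5.17%). On microgravity 2 and static 2 they did so in 4 (11.8%, against 8.14%). The members' deviations from group means correlated at 0.65 for microgravity 1 with static 3. They correlated at 0.51 for microgravity 3 with static 1, and at 0.48 for microgravity 2 with static 2. For Dync1h1 the difference between microgravity 2 and microgravity 3 (18.2 against 9.19) exceeded that between the group means (14.2 ± 4.59 in microgravity and 13.3 ± 4.58 in static cells, SD, n = 3 each). What these arrays share is not given in the labels.

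**Figure D4:**
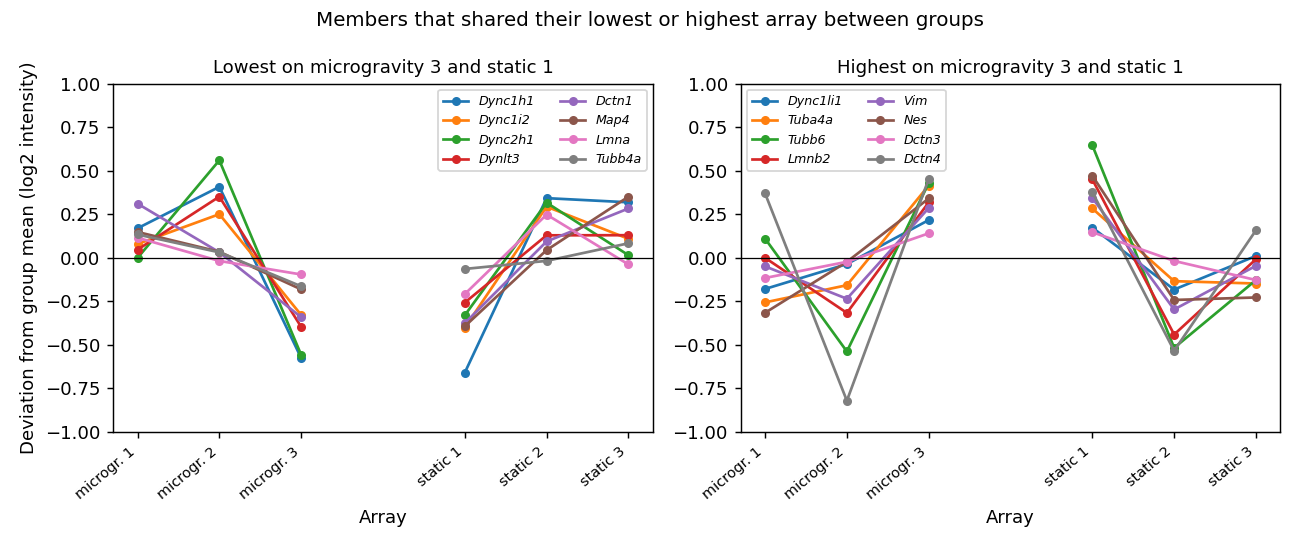
Deviation of each gene's log2 intensity from its group mean on the 3 microgravity arrays and the 3 static arrays. The left panel holds the 8 members lowest on microgravity 3 and static 1, and the right panel 8 of the 12 members highest there, without the 4 with the Krt prefix. The genes were picked after their values were seen. Lines fall on the left, and rise on the right, at microgravity 3 and static 1.

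Without microgravity 3 and static 1, 0 of 64 members passed by limma. At an unadjusted p under 0.05 there were 2, beside 719 of all probes. Without microgravity 2 and static 2, 0 of 57 passed, and 3 were at that level, beside 848 of all probes. In both fits 0 probes of the whole array passed, so the absence of members past the threshold was not particular to the set. Log2 changes over the 19 alternative fits are given for the 2 members with the smallest p in each direction. They lay at -0.70 to -0.46 for Lmna, -0.85 to -0.50 for Dynlt1b, 0.32 to 0.55 for Mapre1 and 0.32 to 0.51 for Dync1li1.

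Other genes of the same systems were read from 9 lists, which hold 89 genes tested that are not members. None passed (0 by limma), and 9 (10.1%) reached an unadjusted p under 0.05, 8 lower and 1 higher. That share was near the 10.8% of all probes tested (5.28% lower and 5.56% higher). Of the 8 lower genes 6 were in the list of mitosis genes, and outside that list 3 of 71 (4.23%) reached this level. The gene higher at that level was Nudcd2, related to the dynein cofactor NudC, among 8 tested dynein regulators. It had 5.24, 5.07 and 5.13 in microgravity and 3.36, 3.28 and 3.77 in static cells, with no overlap. Its ratio was 1.49 (log2 change 0.57, SE 0.13, limma adjusted p = 0.159), and over 19 alternative fits the adjusted p was 0.0797 to 0.611. Of 17 severing, plus-end and lattice proteins, Dclk1, a kinase that binds microtubules, had 1.95, 2.87 and 1.64 in microgravity and 3.19, 3.48 and 3.30 in static cells (ratio 0.631, limma adjusted p = 0.347).

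Of 18 kinesin motors 8 had higher and 10 lower values. At an unadjusted p under 0.05, 2 (11.1%) were lower, against 5.28% of all probes tested. The smallest p belonged to Kif11, the kinesin that pushes spindle poles apart, with 6.34, 6.45 and 6.31 in microgravity and 9.37, 8.29 and 8.39 in static cells (ratio 0.734, limma adjusted p = 0.228). Kif11 is also in the list of mitosis genes. All 18 tested mitosis genes were lower in simulated microgravity, as they were under quantile and cyclic loess normalization, and 16 to 18 were over all alternatives. Their median log2 change was -0.34, and 0 passed by limma. At an unadjusted p under 0.05 there were 6 (33.3%), all lower, against 5.28% of all probes tested that were lower at this level. Array weights made Mki67 pass (limma adjusted p = 0.0322, range over alternatives 0.0322 to 0.526), in a fit where 178 probes passed, against 28 in the reported fit. Stmn1, Tubb5 and Lmna had lower values alongside the mitosis genes, and Mapre1 and Lmnb2 higher ones. Whether cell division has a part in the members' differences was not tested.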

How the data were processed

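The authors deposited 1 table of intensities, linear in scale, with 10500 probes and 6 arrays. Their steps from scanner to table are not stated in the labels. The array medians of 0.908 to 0.927 were so close that the table was taken as already scaled, by an unknown method. Symbols are those of the platform annotation held by GEO, in which 8983 probes had 1 symbol, 1 had several and 1516 had none. All 70 member identifiers were found in the RefSeq gene table of GRCm38.p6, and 0 symbols changed.

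Intensities were divided by the array's median, raised to at least 0.1 and put on the log2 scale. A probe needed 2 or more values per group and 1 value above the floor, and 354 probes did not meet this. Groups were compared with limma 3.58.1 in R 4.3.3 (lmFit, then eBayes with an intensity trend), with 2-sided p-values adjusted by Benjamini-Hochberg over 10146 probes and a threshold of 0.05. SEs and 95% intervals come from this fit. Precision is limited by having 3 arrays in each group. The fit was also run on simulated data with independent noise for each probe and array. Those data had no missing values and no deviations shared between arrays, so they do not show how the fit behaves with either.

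Members and gene lists were chosen with earlier results of these data known, so no list was tested as a set. Named with statistics were the 12 members with the smallest p, the brightest of each class and the leading gene of related lists. Other members are given by level. Those singled out for a high or low array were chosen after their values were seen.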

Additional observations from a re-analysis of the deposited data

How the results depend on the processing

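Among the members 0 passed by limma in any of the 19 alternative fits, where the lowest adjusted p was 0.0922. In the reported fit 0 did at an adjusted p under 0.1. At an unadjusted p under 0.05 the alternative fits held 2 to 7 members, beside 719 to 1534 of all probes. Probes past the threshold numbered 28 in the reported fit. They were 54 with quantile and 56 with cyclic loess normalization, 59 with no floor and 53 with the floor at 0.05, 56 without the dimmest 25% of probes and 55 without the dimmest 50%, 178 with array weights and 121 at an adjusted p under 0.1. They were 0 with the replicate number as a block (938 at an unadjusted p under 0.05), and 0 without any 1 of the 6 arrays (761 to 968). They were also 0 without microgravity 3 and static 1 (719) and without microgravity 2 and static 2 (848), both chosen after seeing the data. These fits had fewer arrays, and the cause was not tested further. Related genes past the threshold were 0 to 0 without any 1 array and 1 (Mki67) with array weights.

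The members' median log2 change was -0.072 to 0.024 without any 1 array, lowest without microgravity 2. Of 28 named genes, 24 kept their sign in each alternative fit that gave them a value, and 6 (Krtap14, Klc1, Dnaic1, Prph, Krtcap3 and Stmn4) had none in 1 to 6 of the fits. Most named genes were picked for a small p on these same arrays, which favours a kept sign. Those that turned (Dctn6, Tubgcp2, Dynlrb1 and Map4) were picked by brightness. Some fits, such as the block and the eBayes variants, leave log2 changes as they are and could not turn a sign. Dctn6 turned to -0.011 with quantile and -0.032 with cyclic loess normalization and to -0.014 without microgravity 3 and static 1, and Tubgcp2 to -0.031, -0.021 and -0.085, and to -0.0054 with array weights. Without any 1 array Dctn6 ranged from -0.046 to 0.13, Tubgcp2 from -0.075 to 0.12, Dynlrb1 from -0.24 to 0.030 and Map4 from -0.28 to 0.097. No member had several probes, so averaging probes was not run.

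The labels do not say what a replicate number marks. Deviations from group means, over all probes tested, correlated at -0.21, 0.45 and -0.18 for samples numbered 1, 2 and 3, so the numbers were not taken as pairs. Only number 2 correlated best with its own number, since microgravity 3 went with static 1 (0.66) and microgravity 1 with static 3 (0.38). With the block 2 members were at an unadjusted p under 0.05, against 5 without it. Of all probes 938 were at that level with the block, against 1100 without it.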

Other observations

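Filament and membrane genes near the set were read in the same way. Of 9 tested intermediate filament and linker genes outside the set, 1 had a mean above the array median, and 0 passed by limma (0 at an unadjusted p under 0.05). Prph, a filament protein of peripheral neurons, had the smallest p among them, with 0.146, 0.258 and 0.204 in microgravity and 0.129, 0.169 and 0.142 in static cells (limma adjusted p = 0.657). Of 5 tested nuclear envelope partners of lamins, 4 had higher values, with 0 past the threshold (0 at an unadjusted p under 0.05). Banf1, which bridges chromatin and the nuclear envelope, had 37.0, 36.6 and 59.3 in microgravity and 37.3, 31.6 and 30.9 in static cells (log2 change 0.38, limma adjusted p = 0.696). Microgravity 3 stood apart there too, and without it the log2 change was 0.15.

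Genes that prepare or modify tubulin (8 tested) and genes of microtubule nucleation (5 tested) held 0 past the threshold and 0 at an unadjusted p under 0.05. Sirt2, a deacetylase of tubulin and other proteins, had 8.99, 12.9 and 10.3 in microgravity and 12.6, 14.4 and 12.2 in static cells (limma adjusted p = 0.688). Pcnt, a scaffold of the centrosome, had 8.02, 9.61 and 8.62 in microgravity and 7.31, 8.24 and 7.21 in static cells (limma adjusted p = 0.767). Axonemal dynein genes, which belong to motile cilia, had 4 members tested, all with means under the array median. Dnaic1 had the smallest p of these, at 0.110 to 0.171 in microgravity and 0.0798 to 0.151 in static cells.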
